A study of Ictidomys tridecemlineatus with 15 samples.

Results

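Livers taken while 13-lined ground squirrels were cooling into a torpor bout were compared with livers taken late in torpor, using only animals of the same hibernation season. The comparison holds 2 libraries from entrance into torpor (Ent replicates 1 and 2) and 2 from late torpor (LT replicates 1 and 3). They were chosen by state and season out of 14 libraries with counts and 15 labelled samples. No measured value entered that choice here. The authors, however, had already removed LT replicate 2, of relatively poor quality, after a principal component analysis marked it as an outlier. Ent animals had left an interbout arousal and were cooling, whereas LT animals were cold and near the end of the bout. All animals were females of a laboratory-housed colony, with no treatment or altered genotype labelled, and each library came from the frozen liver of a different animal. Ent replicate 3 belonged to another season, the 3 early torpor (ET) animals to a further one, and no counts of LT replicate 2, which the authors set aside, were used here. Ages are not given in the labels. The remaining libraries, from summer active (SA) and interbout aroused (IBA) animals, entered only the shared estimate of spread.

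Hibernators pass the winter in bouts of torpor at low body temperature, broken by short arousals in which they rewarm. The liver makes glucose, ketone bodies, bile acids, lipoproteins and most plasma proteins, and during torpor it supplies an animal that lives on stored fat. Global run-on sequencing (GRO-seq) isolates nuclei and lets the polymerases then sitting on genes extend their RNA in the tube, so that reads mark genes under transcription and not the amount of mRNA present. CPM values, counts scaled to the same library size, are shares of a library, and a change in transcription common to all genes cannot be seen on this scale.

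Between 6345826 and 7697181 reads per library were counted in the 4 livers compared, against 3713883 to 8884763 over the 14 libraries. The counted units are 4705 gene bodies of a single gene and 1619 units in which overlapping genes had been merged. Spearman's rho across units, a description that shares the same genes in every pair, was 0.961 between the Ent livers and 0.973 between the LT livers, against 0.851 to 0.891 between an Ent and an LT liver. The LT pair does not include the library that the authors had removed as an outlier. Whole liver mixes several cell types, and fewer cells of a type and less RNA made per cell cannot be told apart. Of the marker genes of hepatocytes, 9 had a unit of their own, with a summed level of 9968 to 11518 CPM in Ent and 5959 to 8968 CPM in LT. Of these 9, 4 (44.4%) were lower in LT, against 12.8% of all single-gene units. By sign, 7 had a log2 fold change below 0 and 2 above 0. The lower ones, Ttr, Tf, Tat and Hnf4a, also belong to other lists below. Of 16 endothelial markers 4 had a unit, summing to 229.6 to 263.8 CPM in Ent and 148 to 161 CPM in LT. Of these 4 units 3 had a log2 fold change below 0 and 1 had one above 0, which did not pass the test. Kdr, at 93.3 and 97.7 CPM in Ent and 39.8 and 50.8 CPM in LT, Eng and Pecam1 were lower, although none of these calls held in every fit with a library left out. Markers of Kupffer cells, lymphocytes and erythroid cells had no unit of their own, Rgs5 was the only stellate marker with a unit and did not pass the test (log2 fold change -0.34 ± 0.32, SE, adjusted p = 0.46), and the cholangiocyte marker Sox9 was lower (log2 fold change -2.14 ± 0.42, SE, adjusted p = 0.0045). The part that cell composition plays in the results was not tested.

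In LT, 564 single-gene units were higher than in Ent and 604 were lower at an adjusted p of 0.05 or less, which is 12.0% and 12.8% of the units tested. The falls were deeper than the rises. Among units past the test, 428 were at least 2-fold lower and 173 at least 2-fold higher, while 119 were at least 4-fold lower and 7 at least 4-fold higher. The median log2 fold change was 0.82 over the units called higher, -1.23 over those called lower and -0.03 over all single-gene units. Merged units divided in a similar way, with 177 higher (10.9%) and 213 lower (13.2%). At the stricter threshold of 0.001, 13 single-gene units were higher and 54 lower. The LT and Ent libraries did not overlap in any of the 1168 units called, nor in 69.5% of all units. The counts depended on single libraries. Without Ent replicate 1, 146 units were higher and 283 lower, without Ent replicate 2 351 and 416, without LT replicate 1 208 and 234, and without LT replicate 3 374 and 462. Each of the 1168 units kept its direction in these 4 fits, and 328 passed the test in all of them. With 2 livers a group an exact permutation test cannot give a p below 0.333, so the calls rest on a spread estimated over all 14 libraries and shared among genes.

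**Figure D1:**
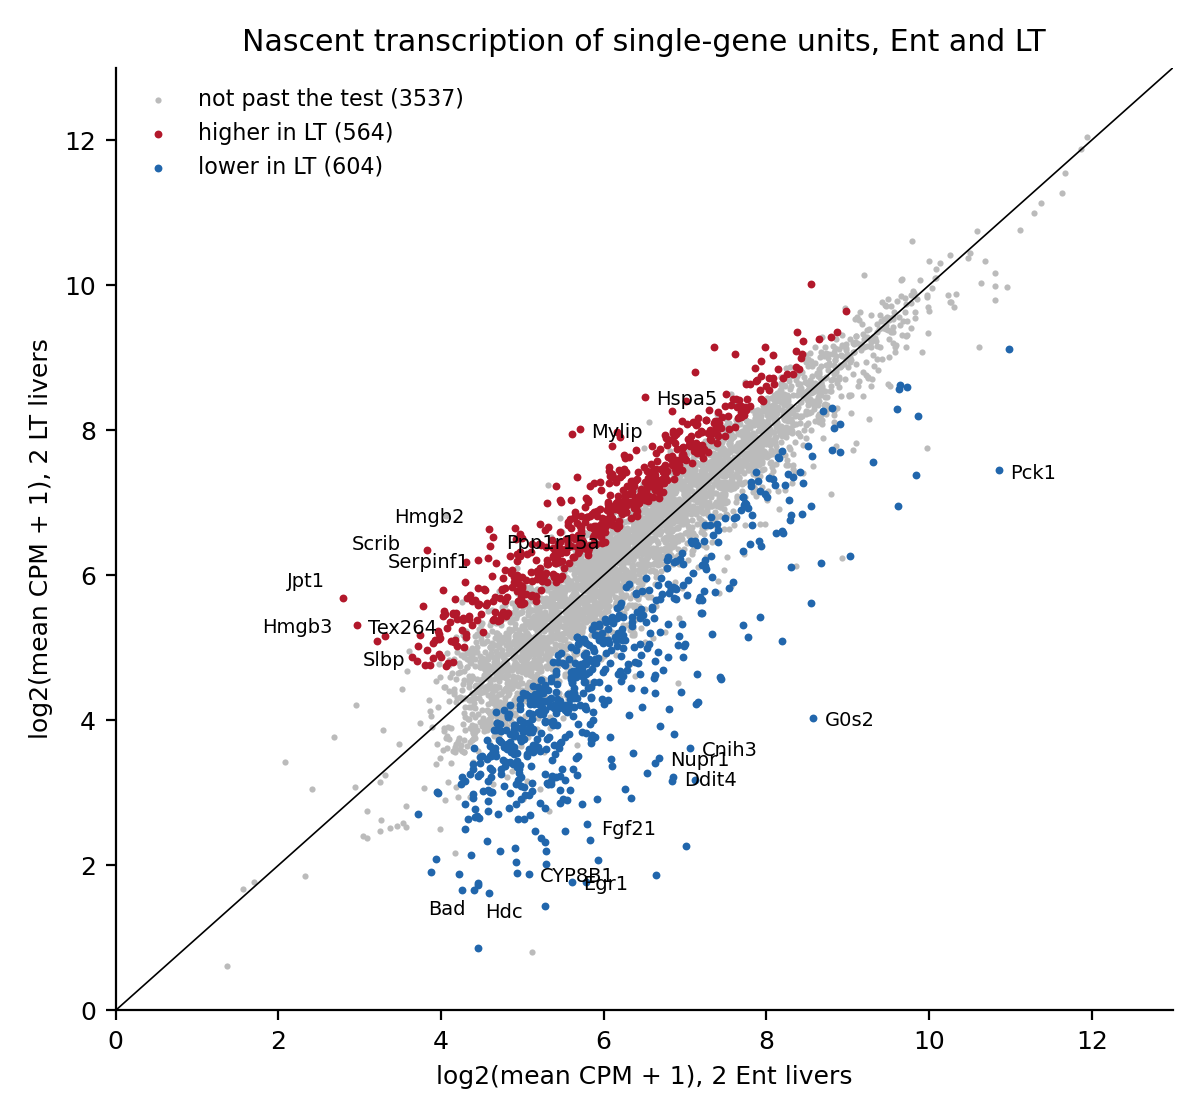
Mean level of each single-gene unit in the 2 Ent livers (x axis) and the 2 LT livers (y axis), as log2(CPM + 1), with 1 point per unit and the 10 largest rises and falls named. Units lower in LT (604, blue) lie farther from the diagonal than units higher in LT (564, red).

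The 10 largest falls included the gluconeogenic gene Pck1 and the lipolysis inhibitor G0s2. Pck1, which encodes the enzyme of the committed step of gluconeogenesis (Itri5:182936327-182944113, minus strand of the HiC_Itri_2 genome), was at 2071 and 1646 CPM in Ent and 174 and 173 CPM in LT (log2 fold change -3.42 ± 0.59, SE, adjusted p = 0.0026). This is a 10.7-fold difference, and the Ent liver of the other season was at 1432 CPM. G0s2 (Itri9:66183616-66188463, minus strand), an inhibitor of the main triglyceride lipase, was at 594 and 169 CPM in Ent and 12.4 and 18.4 CPM in LT (log2 fold change -4.63 ± 0.84, SE, adjusted p = 0.0034), with the Ent livers far apart from each other. Cnih3 (Itri9:53020885-53036225), of the cornichon family of cargo proteins, had 153 and 113 CPM in Ent and 9.52 and 13.1 CPM in LT (log2 fold change -3.55 ± 0.33, SE, adjusted p = 0.00017). The ET livers, at 41.8, 28.3 and 33.7 CPM, lay between the groups for this gene. Bad (Itri3:8482605-8491975), a pro-apoptotic member of the BCL2 family, was at 25.9 and 20.3 CPM in Ent and 1.81 and 2.36 CPM in LT (log2 fold change -3.45 ± 0.27, SE, adjusted p = 0.00012). Nupr1 (Itri9:123894356-123901226), a nuclear protein induced by stress, was at 131 and 72.9 CPM in Ent and 11.2 and 9.13 CPM in LT (log2 fold change -3.33 ± 0.33, SE, adjusted p = 0.00019). The same-season replicates of Bad lay close together, and those of Nupr1 farther apart in Ent. The Ent liver of the other season was well below them for Bad, at 6.82 CPM, and within their range for Nupr1, at 77.8 CPM. Hdc (Itri5:94455864-94476176), which makes histamine from histidine, was at 22.3 and 18.3 CPM in Ent and 2.57 and 1.77 CPM in LT (log2 fold change -3.22 ± 0.40, SE, adjusted p = 0.00058). For Hdc the Ent liver of the other season was lower than these Ent livers, at 7.26 CPM.

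For the other genes among the 10 largest falls the call rested on fewer libraries. CYP8B1 (Itri2:199912174-199918682), a hydroxylase that decides how much cholic acid is made, was at 30.4 and 35.2 CPM in Ent and 3.33 and 2.06 CPM in LT (log2 fold change -3.60 ± 0.85, SE, adjusted p = 0.011). Its LT levels correspond to 22 and 14 reads, and the call was lost without either LT liver. Egr1 (Itri1:153979542-153985268), an immediate early transcription factor, was at 14.5 and 81 CPM in Ent and 4.53 and 0.295 CPM in LT (log2 fold change -4.30 ± 1.12, SE, adjusted p = 0.017), and LT replicate 3 held 2 reads. Ddit4 (Itri1:58152435-58155815), an inhibitor of mTORC1, was at 189.8 and 39.8 CPM in Ent and 13.3 and 3.24 CPM in LT (log2 fold change -3.80 ± 1.01, SE, adjusted p = 0.019). Fgf21 (Itri16:21209193-21215443), a hormone the fasting liver secretes, was at 105 and 7.11 CPM in Ent and 3.17 and 5.01 CPM in LT (log2 fold change -3.77 ± 1.01, SE, adjusted p = 0.02). A single liver, Ent replicate 1, was high for Fgf21, and the other Ent liver, the Ent liver of the other season at 6.37 CPM and the ET livers at 2.36, 12 and 7.98 CPM were all low. Ddit4 and Fgf21 passed the test only in the fit without Ent replicate 2 among those that left out a library, and Egr1 was lost without Ent replicate 2 or without LT replicate 3.

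The largest rises were smaller and more even between animals. Jpt1 (Itri7:5961608-5977183, plus strand), whose protein binds microtubules, was at 5.94 and 5.9 CPM in Ent and 55.9 and 44.6 CPM in LT (log2 fold change 3.08 ± 0.32, SE, adjusted p = 0.00019), an 8.47-fold difference. Scrib (Itri6:923575-944000), a scaffold of cell polarity, was at 14.4 and 11.9 CPM in Ent and 78 and 82.3 CPM in LT (log2 fold change 2.60 ± 0.41, SE, adjusted p = 0.0019). The merged unit of Nrbp2 and Puf60 ends 1029 nt upstream of Scrib on the same strand and differed by a log2 fold change of -0.19. A pair of high-mobility group box genes, whose proteins bend DNA, was higher in LT. Hmgb3 (Itri10:116729751-116736584) was at 5.28 and 8.31 CPM in Ent and 44 and 33.9 CPM in LT (log2 fold change 2.52 ± 0.39, SE, adjusted p = 0.0016), and Hmgb2 (Itri17:24112272-24124587) was at 22 and 24.2 CPM in Ent and 119 and 78.7 CPM in LT (log2 fold change 2.09 ± 0.39, SE, adjusted p = 0.0035). Slbp (Itri14:67970976-67979233), which binds the stem-loop of histone mRNAs, was at 7.79 and 10.1 CPM in Ent and 26.5 and 43.5 CPM in LT (log2 fold change 1.96 ± 0.33, SE, adjusted p = 0.0023). Mylip (Itri8:9386318-9405280), a ubiquitin ligase that sends the LDL receptor to degradation, was at 40.5 and 62 CPM in Ent and 303 and 212 CPM in LT (log2 fold change 2.33 ± 0.41, SE, adjusted p = 0.0029). For Mylip the Ent liver of the other season was at 133 CPM, and the ET livers were at 192, 131 and 243 CPM.

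The other genes among the 10 largest rises were Hspa5, Ppp1r15a, Tex264 and Serpinf1. Hspa5 (Itri3:193572670-193584151), the chaperone BiP, was at 98.1 and 81.8 CPM in Ent and 420.4 and 281 CPM in LT (log2 fold change 1.96 ± 0.47, SE, adjusted p = 0.012), but passed the test in only 1 of the 4 fits with a library left out, the one without LT replicate 3. Ppp1r15a (Itri16:21292979-21299990), the subunit that guides a phosphatase to the initiation factor eIF2, was at 18.6 and 27.8 CPM in Ent and 101 and 66.4 CPM in LT (log2 fold change 1.86 ± 0.39, SE, adjusted p = 0.006), and was not called without Ent replicate 1 or without LT replicate 1. Tex264 (Itri7:66248446-66279129), a receptor that delivers endoplasmic reticulum to autophagosomes, was at 13.1 and 12.4 CPM in Ent and 54.4 and 38.7 CPM in LT (log2 fold change 1.87 ± 0.29, SE, adjusted p = 0.0017). Serpinf1 (Itri7:45008459-45020452), a secreted serpin, was at 16.8 and 13.8 CPM in Ent and 71.3 and 38 CPM in LT (log2 fold change 1.84 ± 0.31, SE, adjusted p = 0.0023), while the ET livers, at 23.4, 15.7 and 24.1 CPM, lay nearer to Ent. Of the 20 genes with the largest rises and falls, 14 passed the test in all 4 fits with a library left out.

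**Figure D2:**
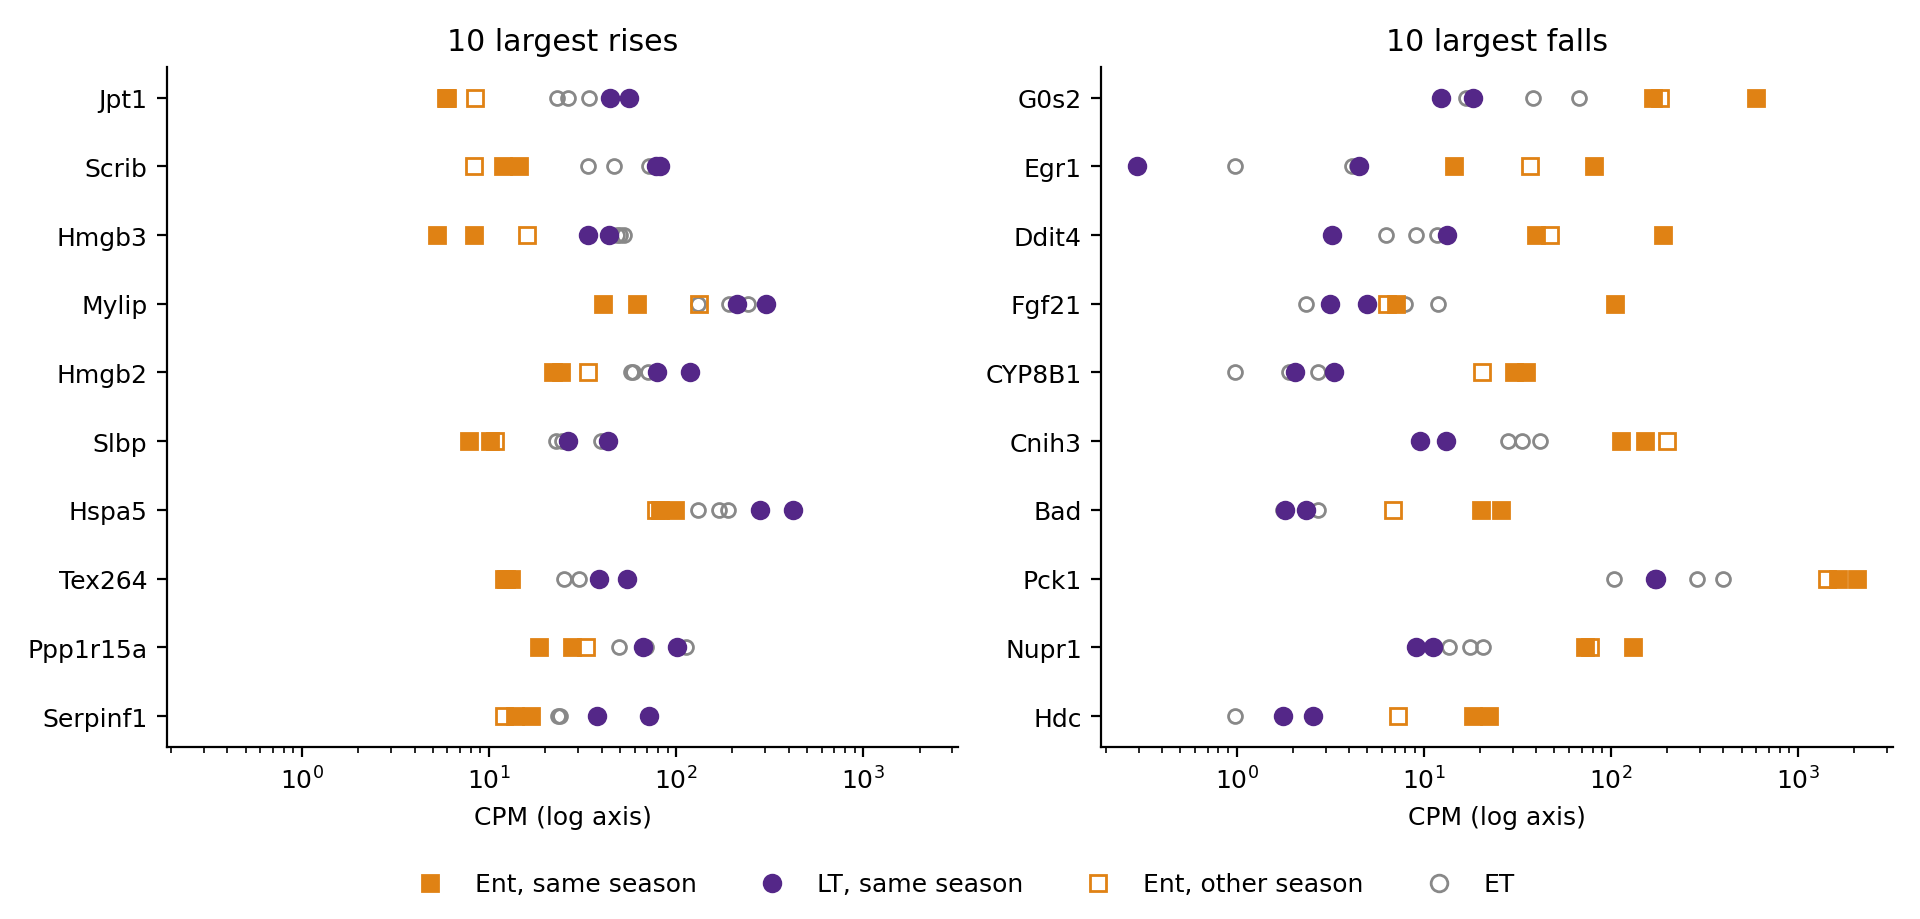
CPM on a log axis in each liver for the 10 genes with the largest rises (left) and the 10 with the largest falls (right), with filled squares for the 2 Ent and filled circles for the 2 LT livers of the same season, open squares for the Ent liver of the other season and open circles for the 3 ET livers. Filled squares and circles do not overlap for any of the 20 genes, and for Fgf21 1 Ent liver, at 105 and 7.11 CPM over the pair, is alone at a high level.

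Gene lists were then read against the 12.0% of units higher and 12.8% lower in LT. Every list is a description by its counts and its median.

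**Figure D3:**
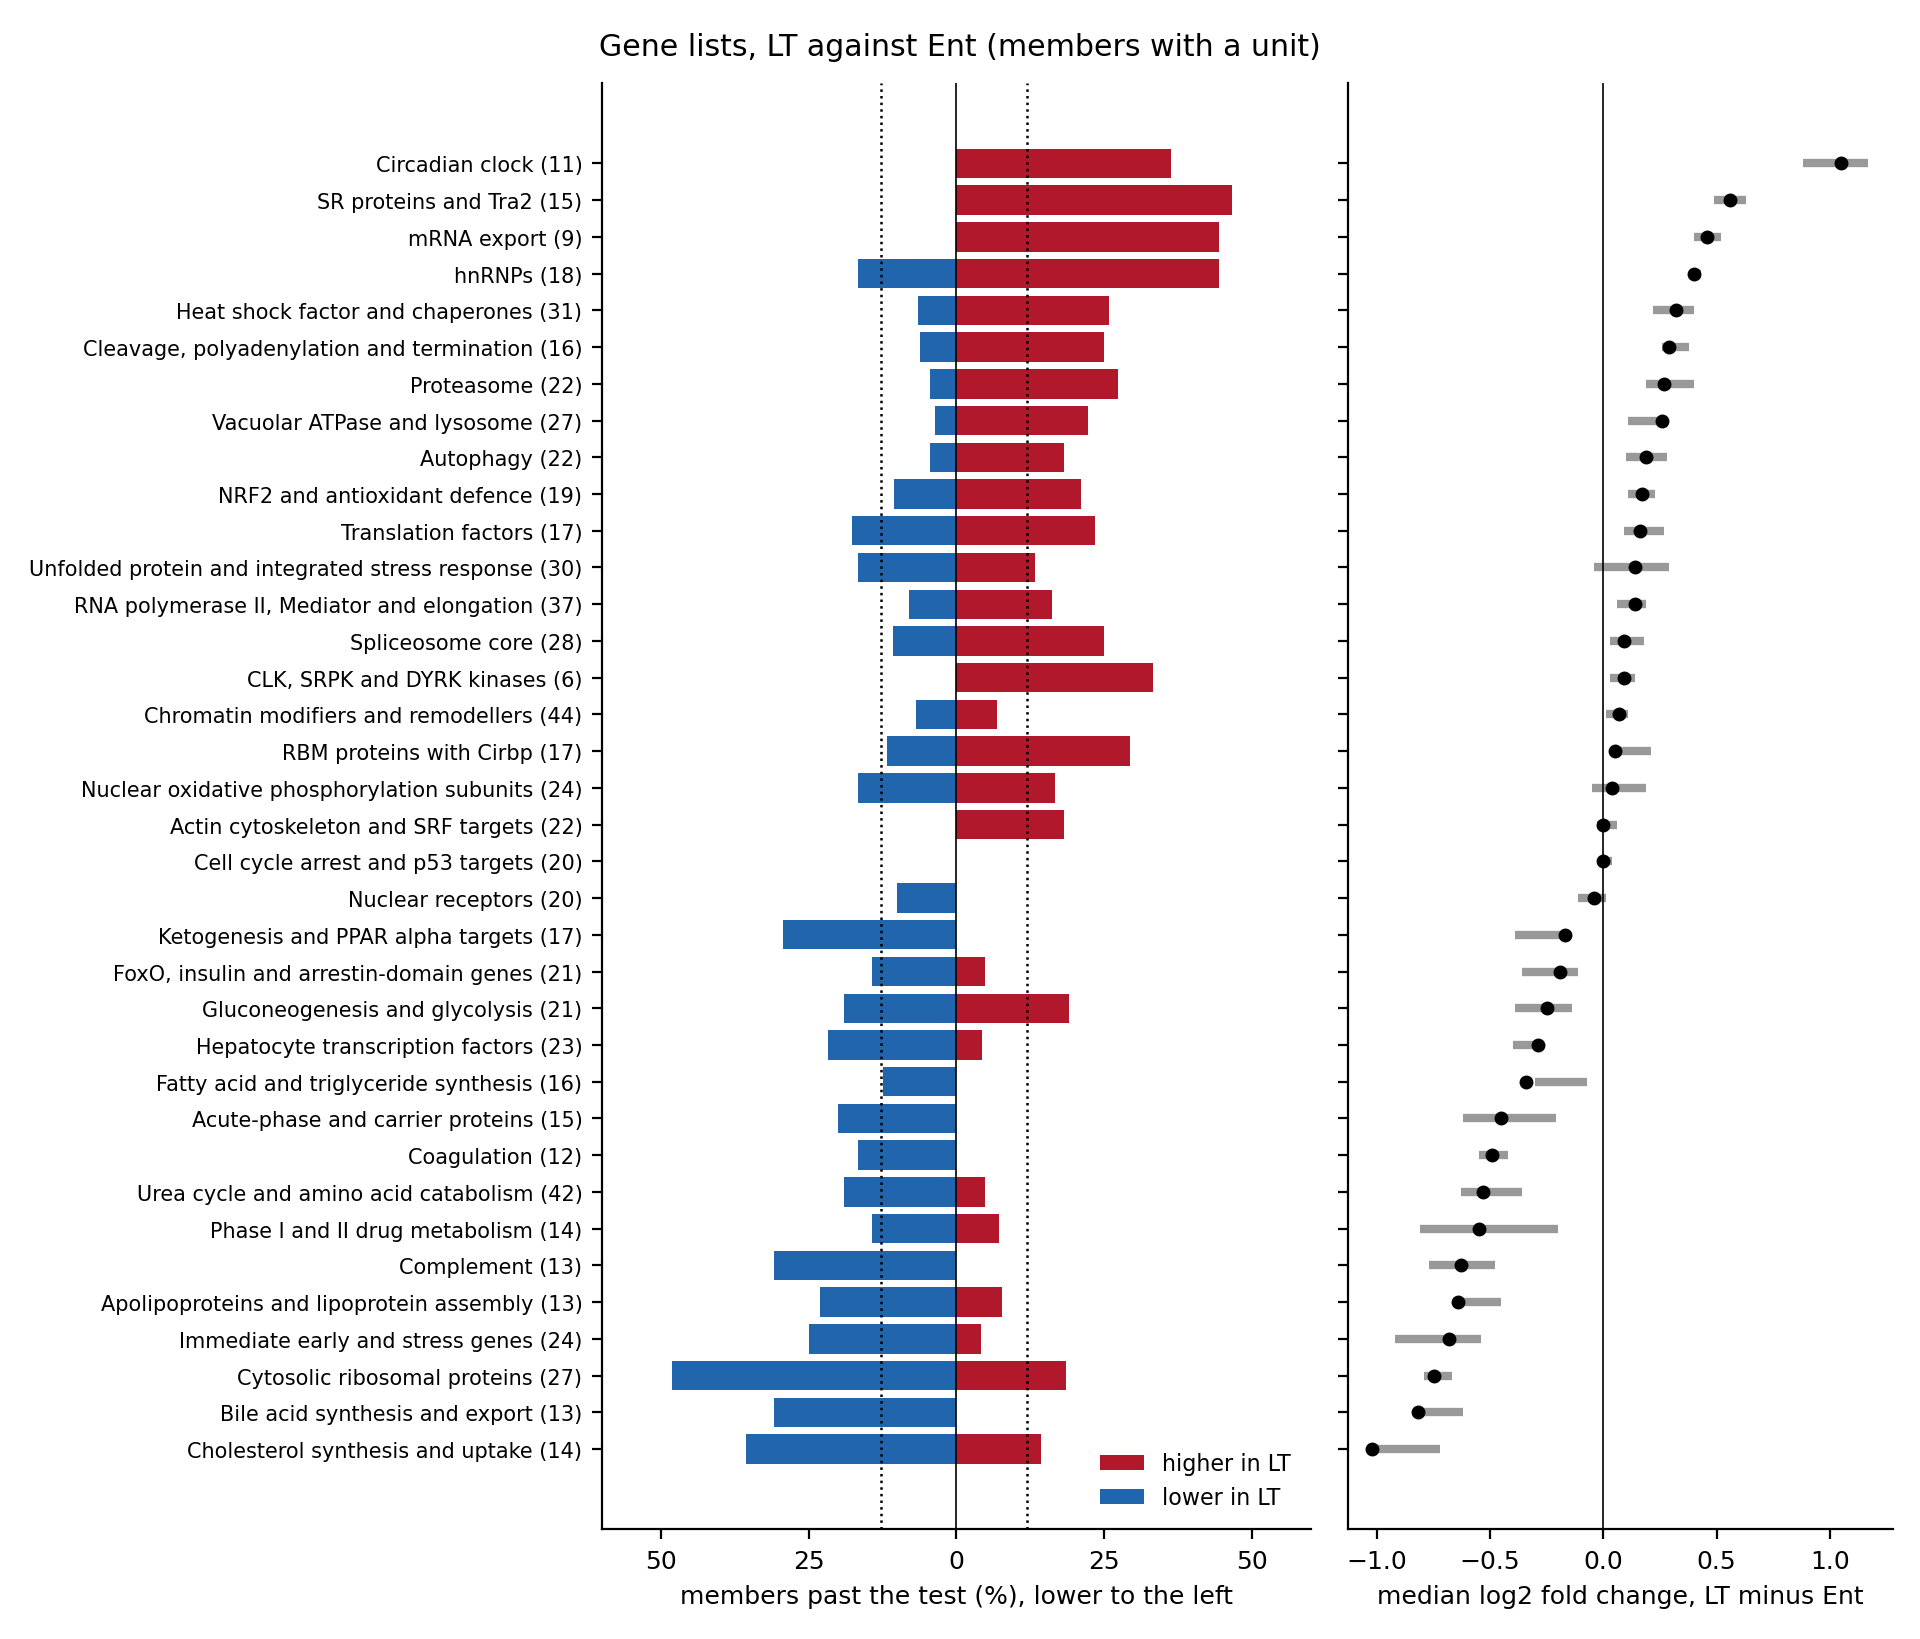
Left, percent of the members with a unit (number in parentheses) that were higher (red, right) or lower (blue, left) in LT, with dotted lines at the 12.0% and 12.8% of all single-gene units. Right, median log2 fold change of the list (point) with its range over the 4 fits that each left out 1 library (grey bar). Splicing, export and clock genes lie at the top and genes of cholesterol, bile acids and ribosomal proteins at the bottom.

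Genes of glucose metabolism differed in direction. Of 21 genes of gluconeogenesis and glycolysis, 4 were lower and 4 higher in LT, with a median of -0.25. This is 19.0% each way, against 12.8% and 12.0% of all units. Beside Pck1, the lower members were the enzyme that releases free glucose, the liver glycogen synthase and the glucose transporter of hepatocytes. G6pc, the catalytic subunit of glucose-6-phosphatase, was at 957 and 612 CPM in Ent and 149.8 and 96.6 CPM in LT (log2 fold change -2.67 ± 0.59, SE, adjusted p = 0.0081). Gys2 was at 129 and 126 CPM in Ent and 32.7 and 32 CPM in LT (log2 fold change -1.98 ± 0.38, SE, adjusted p = 0.0045), the replicates nearly equal within each group. Slc2a2 was at 905 and 693 CPM in Ent and 419.9 and 364 CPM in LT (log2 fold change -1.03 ± 0.28, SE, adjusted p = 0.022). The higher members act in lower glycolysis and in pyruvate oxidation and its control. Pgk1 was at 68 and 63 CPM in Ent and 130.5 and 125 CPM in LT (log2 fold change 0.96 ± 0.17, SE, adjusted p = 0.0031) and Gapdh at 143 and 142 CPM in Ent and 312 and 262 CPM in LT (log2 fold change 1.01 ± 0.25, SE, adjusted p = 0.012). Pdhb, a subunit of pyruvate dehydrogenase, and Pdk1, a kinase that inhibits that enzyme, were higher by log2 fold changes of 0.75 and 0.63, each with an adjusted p of 0.049. Among 21 genes of insulin and FoxO signalling 3 (14.3%) were lower, close to the 12.8% over all units. Only 1 (4.76%) was higher, against 12.0% of all units, whereas DESeq2 called 4 higher and 4 lower. Trib1, a pseudokinase that promotes degradation of C/EBP alpha, was at 179 and 116 CPM in Ent and 41.6 and 46 CPM in LT (log2 fold change -1.75 ± 0.23, SE, adjusted p = 0.00076). Arrdc4, an arrestin-domain protein that limits glucose uptake, was at 87.4 and 61.8 CPM in Ent and 20.7 and 26.2 CPM in LT (log2 fold change -1.67 ± 0.30, SE, adjusted p = 0.0032). Eif4ebp2, a translation repressor and mTORC1 target, was the higher member at 256 and 283 CPM in Ent and 504 and 549.8 CPM in LT (log2 fold change 0.97 ± 0.24, SE, adjusted p = 0.014). With 1 library left out, the call of G6pc passed in 2 of the 4 fits, those of Gapdh, Slc2a2, Pdk1 and Eif4ebp2 in 1 and that of Pdhb in 0.

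Lists of cholesterol, bile acids and fat had more members lower than higher, where 12.8% of all units were lower and 12.0% higher. In fatty acid and triglyceride synthesis the share lower, 12.5%, was that of all units. Of the 14 cholesterol genes 7 did not pass the test, and in the other lists the majority did not. Of 14 cholesterol genes 5 (35.7%) were lower and 2 (14.3%) higher. The median was -1.02, staying between -1.02 and -0.72 when any 1 library was left out. In the contrast of the ET livers with the Ent liver of the other season, the median of this list was only -0.23. The lower members make cholesterol, hold back its synthesis or esterify it. Sc5d, a desaturase late in the pathway, was at 123 and 99 CPM in Ent and 52.5 and 53.5 CPM in LT (log2 fold change -1.07 ± 0.19, SE, adjusted p = 0.0033). Hmgcs1, of the early steps, had a log2 fold change of -1.51, Insig2, which retains the sterol sensor in the endoplasmic reticulum, -1.18, and Soat2 -1.06. Of these only Sc5d kept its call in every fit with a library left out. Mylip and Scap, the sterol sensor, were the higher members, Scap at 53.9 and 43.5 CPM in Ent and 77.1 and 72.8 CPM in LT (log2 fold change 0.62 ± 0.16, SE, adjusted p = 0.015). The call of Scap passed in 2 of the 4 fits, that of Insig2 in 1 and those of Hmgcs1 and Soat2 in 0.

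Bile acid genes had 4 of 13 members (30.8%) lower and 0 higher, with a median of -0.82. Over all units 12.8% were lower and 12.0% higher. Slc10a1, the uptake transporter for bile acids, was at 349.6 and 282 CPM in Ent and 84.2 and 52.3 CPM in LT (log2 fold change -2.21 ± 0.36, SE, adjusted p = 0.0022). Its unit (Itri5:61216569-61236604, plus strand) lies within that of Srsf5 on the opposite strand (Itri5:61214434-61238715), and reads were assigned by strand. Scp2, a sterol carrier, was at 509.8 and 444 CPM in Ent and 238 and 304 CPM in LT (log2 fold change -0.82 ± 0.19, SE, adjusted p = 0.0099), and Slc27a5, which couples bile acids to coenzyme A, had a log2 fold change of -1.79. In the list of ketogenesis and PPAR alpha targets 5 of 17 (29.4%) were lower and 0 higher. Fabp1, the fatty acid binding protein of the liver, was at 147 and 135 CPM in Ent and 18.3 and 29.6 CPM in LT (log2 fold change -2.56 ± 0.62, SE, adjusted p = 0.012), and Bdh1, which interconverts the ketone bodies, at 153 and 148 CPM in Ent and 57.9 and 87.9 CPM in LT (log2 fold change -1.05 ± 0.27, SE, adjusted p = 0.017). None of these 5 calls held in all 4 fits with a library left out. Of 16 genes of fatty acid and triglyceride synthesis only Thrsp and Fads1 passed, both lower. This is 12.5%, close to the share over all units. Thrsp, a regulator of lipogenesis, was at 312 and 169.9 CPM in Ent and 47.5 and 36.1 CPM in LT (log2 fold change -2.53 ± 0.49, SE, adjusted p = 0.0044), and Fads1, a desaturase, at 55.8 and 54 CPM in Ent and 14.1 and 27.4 CPM in LT (log2 fold change -1.40 ± 0.36, SE, adjusted p = 0.016). Fads2, its neighbour on the chromosome, was at 111 and 129 CPM in Ent and 36.4 and 105 CPM in LT (log2 fold change -0.77 ± 0.49, SE, adjusted p = 0.28) and did not pass. Among 13 lipoprotein genes 3 (23.1%) were lower, Apom and Sar1b among them, and Abcg1 was higher. Apom was at 37.2 and 48.8 CPM in Ent and 12.5 and 11.3 CPM in LT (log2 fold change -1.85 ± 0.33, SE, adjusted p = 0.0032), and Abcg1, a sterol exporter, at 113 and 213 CPM in Ent and 670.1 and 459 CPM in LT (log2 fold change 1.79 ± 0.57, SE, adjusted p = 0.041). Apob, the backbone of very low density lipoprotein, was at 3525 and 3930.0 CPM in Ent and 4459.6 and 3102 CPM in LT (log2 fold change 0.02 ± 0.27, SE, adjusted p = 0.96). Of the bile acid genes 1 was higher at an unadjusted p under 0.05 in edgeR, and DESeq2 called 1 higher and 5 lower. In the ketogenesis list 0 were higher at the unadjusted p and 0 by DESeq2. Leaving out each library in turn, Scp2 passed in 2 of the 4 fits, Fads1 in 1, and Slc27a5, Sar1b and Abcg1 in 0.

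Amino acid genes had 19.0% of members lower, against 12.8% of all units. Of 42 genes of the urea cycle and amino acid breakdown 8 were lower and 2 higher, with a median of -0.53. Gls2, the liver glutaminase, was at 299.9 and 319 CPM in Ent and 135 and 125 CPM in LT (log2 fold change -1.25 ± 0.25, SE, adjusted p = 0.0051). Hal, which starts histidine breakdown, was at 1074 and 783 CPM in Ent and 356 and 230.4 CPM in LT (log2 fold change -1.66 ± 0.45, SE, adjusted p = 0.02). Tat, tyrosine aminotransferase, was at 1423 and 405 CPM in Ent and 235 and 95.7 CPM in LT (log2 fold change -2.47 ± 0.56, SE, adjusted p = 0.0091), Ent replicate 1 being well above Ent replicate 2, and the call was lost without Ent replicate 1 or without LT replicate 3. Glul, which makes glutamine, was at 129 and 119.7 CPM in Ent and 82.4 and 74.2 CPM in LT (log2 fold change -0.67 ± 0.14, SE, adjusted p = 0.0066). Ivd and Mccc2, which act in the breakdown of leucine, were the higher members. Ivd was at 166 and 197 CPM in Ent and 381 and 340.5 CPM in LT (log2 fold change 0.99 ± 0.16, SE, adjusted p = 0.002) and Mccc2 at 139 and 146 CPM in Ent and 269 and 221 CPM in LT (log2 fold change 0.78 ± 0.17, SE, adjusted p = 0.0068). The groups did not overlap for either gene. Cps1, the entry enzyme of the urea cycle, was at 2080.4 and 1122 CPM in Ent and 1418 and 673 CPM in LT (log2 fold change -0.62 ± 0.74, SE, adjusted p = 0.59), with overlapping groups. In the fits with a library left out Glul passed in 3 of 4, Mccc2 in 2 and Hal in 1.

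No gene of coagulation, complement or the acute phase was higher in the edgeR test, against 12.0% of all units. Each list holds only 12 to 15 genes, so a count of 0 in any 1 of them says little. The share lower was 16.7% in coagulation and 30.8% in complement, with the acute-phase list, at 3 of 15, between them. Of all units 12.8% were lower. Of 12 coagulation genes 2 were lower, the anticoagulant protease gene Proc at 96.2 and 99 CPM in Ent and 41 and 42.3 CPM in LT (log2 fold change -1.23 ± 0.24, SE, adjusted p = 0.0048) and plasminogen, Plg, at 769 and 821 CPM in Ent and 412 and 347 CPM in LT (log2 fold change -1.07 ± 0.22, SE, adjusted p = 0.0061). Both calls held without any 1 library. Ggcx, the carboxylase that needs vitamin K, was at 92.5 and 103 CPM in Ent and 55.9 and 76 CPM in LT (log2 fold change -0.57 ± 0.19, SE, adjusted p = 0.051), and did not pass. Of 13 complement genes 4 were lower, including the inhibitor gene Cfi at 171 and 167 CPM in Ent and 112 and 84.4 CPM in LT (log2 fold change -0.78 ± 0.19, SE, adjusted p = 0.013) and Masp1 at 188 and 136 CPM in Ent and 99.9 and 85.9 CPM in LT (log2 fold change -0.80 ± 0.20, SE, adjusted p = 0.014). The calls of Cfd, Clu, Cfi and Masp1 were each lost without some library. Of 15 acute-phase and carrier genes 3 were lower. Ttr, the carrier of thyroxine and retinol, was at 751 and 519.6 CPM in Ent and 231 and 145 CPM in LT (log2 fold change -1.76 ± 0.32, SE, adjusted p = 0.0034), and Rbp4, its retinol-binding partner, at 844 and 715 CPM in Ent and 344 and 281 CPM in LT (log2 fold change -1.32 ± 0.33, SE, adjusted p = 0.014). Tf, transferrin, was at 372 and 355 CPM in Ent and 201 and 237 CPM in LT (log2 fold change -0.73 ± 0.17, SE, adjusted p = 0.0099). In drug metabolism 2 of 14 units were lower and 1 higher. Aldh2, an aldehyde dehydrogenase, was the higher one at 126 and 154 CPM in Ent and 263 and 276 CPM in LT (log2 fold change 0.95 ± 0.20, SE, adjusted p = 0.0069). The lower units belong to the families UGT2B4 and CES2, whose members resemble each other closely. Only uniquely aligned reads had been counted, so reads that match several copies would be missing from these counts. The count higher in each of these 3 lists was also 0 at an unadjusted p under 0.05 and 0 by DESeq2. Aldh2 passed in 3 of the 4 fits with a library left out, Tf in 2 and Rbp4 in 1.

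The transcription factors that maintain hepatocyte genes had 5 of 23 members (21.7%) lower and 1 (4.35%) higher. Over all units 12.8% were lower and 12.0% higher. Hnf4a, a nuclear receptor on which much of hepatocyte gene expression depends, was at 958 and 732 CPM in Ent and 419 and 354 CPM in LT (log2 fold change -1.13 ± 0.21, SE, adjusted p = 0.0033) and kept its call without any 1 library. Onecut1 was at 261 and 225 CPM in Ent and 73.2 and 93.8 CPM in LT (log2 fold change -1.54 ± 0.36, SE, adjusted p = 0.01). The groups did not overlap for either factor, and the call for Onecut1 was lost without Ent replicate 1 or without LT replicate 1. Bcl6, a repressor, was at 301 and 391 CPM in Ent and 106 and 123 CPM in LT (log2 fold change -1.60 ± 0.52, SE, adjusted p = 0.043), and Stat5b and Nfix had log2 fold changes of -0.81 and -0.73. Of 20 nuclear receptors 2 (10.0%) were lower, near the share over all units, and 0 higher, whereas DESeq2 called 2 higher. The lower ones were Hnf4a and Nr1i2, the xenobiotic sensor PXR. Nr1i2 was at 309 and 291 CPM in Ent and 126 and 175 CPM in LT (log2 fold change -1.0 ± 0.22, SE, adjusted p = 0.0076). The call of Nr1i2 passed in 2 of the 4 fits with a library left out, that of Stat5b in 1 and those of Bcl6 and Nfix in 0.

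Immediate early genes, which cells switch on within minutes of a stimulus, had a negative median. Of 24 with a unit 6 (25%) were lower and 1 higher, and the median was -0.68. With any 1 library left out that median was between -0.92 and -0.54. Of these units 20 are in the shortest of 4 classes of all units by length, in which the share lower was much the same at 26.1%. Zfp36l1 and Zfp36l2 encode proteins that bind AU-rich elements and speed mRNA decay. Zfp36l1 was at 458 and 358 CPM in Ent and 75.1 and 66.6 CPM in LT (log2 fold change -2.53 ± 0.32, SE, adjusted p = 0.00073), and Zfp36l2 was at 118 and 104 CPM in Ent and 17.2 and 16.3 CPM in LT (log2 fold change -2.72 ± 0.35, SE, adjusted p = 0.00067). Neither call depended on a single library. Nfkbia, the inhibitor of NF-kappaB, was at 93.3 and 81.3 CPM in Ent and 25.4 and 32.1 CPM in LT (log2 fold change -1.60 ± 0.23, SE, adjusted p = 0.0013), whereas the ET livers were at 73, 83.1 and 74.4 CPM. Dusp6, a phosphatase for ERK, was at 82.5 and 76.6 CPM in Ent and 24.9 and 16.8 CPM in LT (log2 fold change -1.93 ± 0.34, SE, adjusted p = 0.0029), and Gadd45g at 124 and 81.3 CPM in Ent and 13 and 15.3 CPM in LT (log2 fold change -2.85 ± 0.63, SE, adjusted p = 0.008). Csrnp1, a nuclear protein induced by axin, was the higher member at 31.5 and 29 CPM in Ent and 101 and 87.3 CPM in LT (log2 fold change 1.63 ± 0.44, SE, adjusted p = 0.02). The calls of Gadd45g and Csrnp1 passed in 2 and 1 of the 4 fits with a library left out.

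Genes of the unfolded protein and integrated stress responses did not move as a group. Of 30 4 were higher and 5 lower, near the shares over all units. Chaperone and redox genes of the endoplasmic reticulum were among the higher members, Hspa5 as above, Pdia3 at 208 and 170.1 CPM in Ent and 340.1 and 309 CPM in LT (log2 fold change 0.78 ± 0.26, SE, adjusted p = 0.044) and Ero1b at 125 and 130.0 CPM in Ent and 188 and 199 CPM in LT (log2 fold change 0.60 ± 0.18, SE, adjusted p = 0.029). Xbp1, a transcription factor of the same response, was lower at 368 and 223 CPM in Ent and 96.9 and 92.4 CPM in LT (log2 fold change -1.64 ± 0.42, SE, adjusted p = 0.016). The phosphatase subunits that act on eIF2 divided, with Ppp1r15a higher and Ppp1r15b lower at 71.7 and 59.3 CPM in Ent and 37.9 and 29 CPM in LT (log2 fold change -0.97 ± 0.27, SE, adjusted p = 0.022). Xbp1 passed in 1 of the 4 fits with a library left out, and Pdia3, Ero1b and Ppp1r15b in 0.

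RNA-binding proteins that choose splice sites were the group with the largest share of higher members. Of 15 SR proteins and Tra2 genes 7, or 46.7%, were higher in LT and 0 lower, against 12.0% of all units higher, and the median was 0.56, between 0.49 and 0.63 when any 1 library was left out. Tra2b and Srsf6 are genes whose splicing the study discusses from RNA-seq of the same hibernation states. Tra2b (Itri7:117858655-117891769) was at 372 and 376 CPM in Ent and 1127 and 943 CPM in LT (log2 fold change 1.47 ± 0.19, SE, adjusted p = 0.00067). Its paralog Tra2a was at 108 and 109.6 CPM in Ent and 244 and 201 CPM in LT (log2 fold change 1.03 ± 0.16, SE, adjusted p = 0.0019), and Srsf3 was at 179 and 179 CPM in Ent and 338 and 304 CPM in LT (log2 fold change 0.84 ± 0.15, SE, adjusted p = 0.0035). Replicates lay close together for each. Srsf7 was at 53.9 and 68.8 CPM in Ent and 193 and 118 CPM in LT (log2 fold change 1.34 ± 0.26, SE, adjusted p = 0.0042), Srsf11 at 225 and 263 CPM in Ent and 489 and 366 CPM in LT (log2 fold change 0.81 ± 0.15, SE, adjusted p = 0.0038) and Srsf6 at 141 and 163 CPM in Ent and 296 and 269 CPM in LT (log2 fold change 0.90 ± 0.19, SE, adjusted p = 0.0061). Srsf5, also discussed by the study, was at 351 and 423 CPM in Ent and 449.9 and 518 CPM in LT (log2 fold change 0.32 ± 0.15, SE, adjusted p = 0.14) and did not pass the test. At an unadjusted p under 0.05 edgeR found 11 of the SR and Tra2 members higher and 0 lower, and DESeq2 at an adjusted p of 0.05 called 10 higher and 0 lower. Srsf7 and Srsf6 passed in 3 and 2 of the 4 fits with a library left out.

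The hnRNPs, which bind nascent RNA and often oppose SR proteins, had 8 of 18 members higher and 3 lower, with a median of 0.40. These shares are 44.4% and 16.7%, against 12.0% and 12.8% of all units, so the share lower was near that of all units. Hnrnpdl, at 98.1 and 131 CPM in Ent and 232 and 263 CPM in LT (log2 fold change 1.11 ± 0.22, SE, adjusted p = 0.0046), Hnrnpd at 211 and 255 CPM in Ent and 422 and 399.7 CPM in LT (log2 fold change 0.82 ± 0.16, SE, adjusted p = 0.0051) and Ewsr1 at 201 and 226 CPM in Ent and 416 and 378 CPM in LT (log2 fold change 0.89 ± 0.15, SE, adjusted p = 0.0024) were higher. Hnrnpa2b1, the member with the most reads of those higher, was at 462 and 546 CPM in Ent and 816 and 785 CPM in LT (log2 fold change 0.67 ± 0.16, SE, adjusted p = 0.0099). The lower ones were Pcbp1, Hnrnph1 and Hnrnpul2. Pcbp1, a gene without introns that binds poly(C), was at 75.2 and 97.2 CPM in Ent and 15.3 and 32.6 CPM in LT (log2 fold change -1.85 ± 0.30, SE, adjusted p = 0.002), and the ET livers were at 62.1, 67.6 and 50.1 CPM. Hnrnph1 was at 275 and 237 CPM in Ent and 125 and 142 CPM in LT (log2 fold change -0.94 ± 0.18, SE, adjusted p = 0.0037), and the ET livers were at 228, 212 and 198 CPM. For both genes all 3 ET livers lay above both LT livers. Of 6 kinases of the CLK, SRPK and DYRK families, Hipk1 was higher at 64.9 and 66.2 CPM in Ent and 110.3 and 108 CPM in LT (log2 fold change 0.73 ± 0.15, SE, adjusted p = 0.0049), as was Srpk1, which phosphorylates SR proteins, at 89.2 and 78.6 CPM in Ent and 129 and 128 CPM in LT (log2 fold change 0.61 ± 0.18, SE, adjusted p = 0.031). The Srpk1 call was lost without any 1 of the 4 libraries. Hnrnpdl and Hnrnpd passed in 3 of the 4 fits with a library left out, and Hnrnpa2b1 and Hnrnpul2 in 2.

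The core spliceosome moved less. Of 28 members 7 were higher and 3 lower, and the median was 0.09. Dhx9, an RNA helicase, was at 228 and 261 CPM in Ent and 549.6 and 437 CPM in LT (log2 fold change 1.01 ± 0.15, SE, adjusted p = 0.0014). Prpf19, a ubiquitin ligase of the spliceosome, was at 37.4 and 43.2 CPM in Ent and 71.7 and 105 CPM in LT (log2 fold change 1.13 ± 0.24, SE, adjusted p = 0.0059), and Sf3b1 of the U2 particle at 244 and 239 CPM in Ent and 417 and 336 CPM in LT (log2 fold change 0.64 ± 0.17, SE, adjusted p = 0.02). Snrpc, of the U1 particle, was lower at 23.5 and 19 CPM in Ent and 11.3 and 9.28 CPM in LT (log2 fold change -1.05 ± 0.22, SE, adjusted p = 0.0057). Of 17 RBM genes 5 (29.4%) were higher and 2 (11.8%) lower, the latter near the share over all units. Rbm10 was at 70.5 and 58.8 CPM in Ent and 122 and 116 CPM in LT (log2 fold change 0.88 ± 0.21, SE, adjusted p = 0.01). Rbm12 was at 153 and 148 CPM in Ent and 103 and 103 CPM in LT (log2 fold change -0.55 ± 0.12, SE, adjusted p = 0.0088). No call of this list held in all 4 fits with a library left out. In mRNA export 4 of 9 (44.4%) were higher and 0 lower, with a median of 0.46. Tpr and Nup133, of the nuclear pore, were at 85.7 and 86.5 CPM in Ent and 149 and 125 CPM in LT (log2 fold change 0.67 ± 0.17, SE, adjusted p = 0.013) and at 23.2 and 21.9 CPM in Ent and 54.3 and 39.8 CPM in LT (log2 fold change 1.06 ± 0.27, SE, adjusted p = 0.015). None of these calls held in all 4 fits with a library left out either. In the export list 0 were lower at an unadjusted p under 0.05 and 0 by DESeq2. Of the spliceosome genes named, Prpf19 and Snrpc passed in 3 of the 4 fits with a library left out and Sf3b1 in 1.

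In cleavage, polyadenylation and termination 4 of 16 were higher and 1 lower. Exosc10, the nuclear exosome nuclease, was at 74.3 and 80.3 CPM in Ent and 147 and 152 CPM in LT (log2 fold change 0.95 ± 0.16, SE, adjusted p = 0.0026) and kept its call without any 1 library. Cstf3, of the cleavage stimulation factor, was at 142 and 172 CPM in Ent and 345 and 274 CPM in LT (log2 fold change 0.98 ± 0.27, SE, adjusted p = 0.021), and Nudt21, of cleavage factor I, was lower at 26.4 and 28.1 CPM in Ent and 13.2 and 18 CPM in LT (log2 fold change -0.81 ± 0.25, SE, adjusted p = 0.038). Among 37 genes of RNA polymerase II, Mediator and elongation 6 were higher and 3 lower, near the shares over all units. Ctr9 and Rtf1 of the PAF1 complex were higher, Ctr9 at 48.4 and 51.4 CPM in Ent and 90.2 and 75.9 CPM in LT (log2 fold change 0.73 ± 0.16, SE, adjusted p = 0.0076), and Polr2a, the largest subunit, was at 79.9 and 71.5 CPM in Ent and 136 and 101 CPM in LT (log2 fold change 0.64 ± 0.16, SE, adjusted p = 0.013). Taf7, a subunit of TFIID with no intron in its coding sequence, was lower at 51.9 and 74.5 CPM in Ent and 14.1 and 21.5 CPM in LT (log2 fold change -1.83 ± 0.32, SE, adjusted p = 0.0027), as was Nelfe, of the pausing factor NELF, at 26 and 20.4 CPM in Ent and 7.71 and 10.6 CPM in LT (log2 fold change -1.34 ± 0.27, SE, adjusted p = 0.0055). Cstf3, Ctr9, Rtf1 and Nelfe passed in 2 of the 4 fits with a library left out, and Nudt21 and Polr2a in 1.

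Chaperones and proteasome genes had 25.8% and 27.3% of members higher, against 12.0% of all units. Of 31 heat shock factors and chaperones 8 were higher and 2 lower, with a median of 0.32. Hsf2, a heat shock factor, was at 66.9 and 74.1 CPM in Ent and 269 and 234 CPM in LT (log2 fold change 1.84 ± 0.19, SE, adjusted p = 0.00019). Hsp90aa1, the inducible cytosolic HSP90 and a gene the study discusses with these libraries, was at 40.7 and 45.4 CPM in Ent and 133 and 128 CPM in LT (log2 fold change 1.60 ± 0.31, SE, adjusted p = 0.0046), and Hspd1, the mitochondrial chaperonin, at 83.4 and 115 CPM in Ent and 209 and 202 CPM in LT (log2 fold change 1.05 ± 0.19, SE, adjusted p = 0.0036). All of them kept their calls without any 1 library. Dnaja2 and Cct4 were higher by log2 fold changes of 0.84 and 0.70. Dnajb1, an HSP40, was lower at 21.1 and 30.1 CPM in Ent and 10.3 and 13.7 CPM in LT (log2 fold change -1.09 ± 0.23, SE, adjusted p = 0.0061), and so was Dnaja3, which works in mitochondria, at 94.8 and 66.7 CPM in Ent and 37 and 39.5 CPM in LT (log2 fold change -1.08 ± 0.23, SE, adjusted p = 0.0069). Of 22 proteasome genes 6 were higher and 1 lower, with a median of 0.27. Psmd4, the ubiquitin receptor, was at 24.3 and 32 CPM in Ent and 63.6 and 65.4 CPM in LT (log2 fold change 1.20 ± 0.17, SE, adjusted p = 0.0012), Psmc1, an ATPase of the base, at 65.2 and 87.2 CPM in Ent and 170.1 and 171 CPM in LT (log2 fold change 1.16 ± 0.18, SE, adjusted p = 0.0016), and Psmb2, a core subunit, at 119 and 149 CPM in Ent and 247 and 235 CPM in LT (log2 fold change 0.84 ± 0.15, SE, adjusted p = 0.0028). Psma6 was the lower member at 76.7 and 76.5 CPM in Ent and 57.1 and 55.7 CPM in LT (log2 fold change -0.44 ± 0.15, SE, adjusted p = 0.048). Dnaja2, Cct4, Dnajb1 and Dnaja3 passed in 2 of the 4 fits with a library left out and Psma6 in 0.

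Lysosome genes had 22.2% of members higher and autophagy genes 18.2%, against 12.0% of all units. Of 27 genes of the vacuolar ATPase and lysosome 6 were higher and 1 lower. The lysosomal enzymes Neu1 and Asah1 were higher. Neu1, a sialidase, was at 49.4 and 49 CPM in Ent and 122 and 111 CPM in LT (log2 fold change 1.24 ± 0.20, SE, adjusted p = 0.002), and Asah1, acid ceramidase, at 38.4 and 52.8 CPM in Ent and 83.4 and 95.7 CPM in LT (log2 fold change 0.98 ± 0.20, SE, adjusted p = 0.0057). Atp6v1b2, a proton pump subunit that the study discusses with these libraries, was at 118 and 124 CPM in Ent and 217 and 149 CPM in LT (log2 fold change 0.60 ± 0.18, SE, adjusted p = 0.032), and passed the test in only 1 of the 4 fits with a library left out. In autophagy 4 of 22 were higher and 1 lower. Gabarapl2, an ATG8 protein of the autophagosome, was at 28.5 and 43.8 CPM in Ent and 122 and 85.9 CPM in LT (log2 fold change 1.52 ± 0.28, SE, adjusted p = 0.0033), and Atg4c, a protease for ATG8 proteins, was lower at 59 and 59.4 CPM in Ent and 22.4 and 31.2 CPM in LT (log2 fold change -1.14 ± 0.26, SE, adjusted p = 0.0091). Asah1 and Atg4c passed in 3 and 2 of the 4 fits with a library left out.

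Clock genes had the highest median of all lists. Of 11 members 4 (36.4%) were higher and 0 lower, against 12.0% and 12.8% of all units. The median was 1.05, between 0.88 and 1.17 without any 1 library. Cry2, a repressor of the clock, was at 129.5 and 128 CPM in Ent and 347 and 332 CPM in LT (log2 fold change 1.40 ± 0.31, SE, adjusted p = 0.0086). Per2, another repressor, was at 105 and 119 CPM in Ent and 236 and 228 CPM in LT (log2 fold change 1.05 ± 0.25, SE, adjusted p = 0.011). The kinase gene Csnk1d, whose product marks PER proteins for degradation, was at 115 and 127 CPM in Ent and 265 and 239.6 CPM in LT (log2 fold change 1.06 ± 0.27, SE, adjusted p = 0.016). Within each group the livers lay close together for all of these. No call of this list held in all 4 fits with a library left out, and the clock time at which each liver was collected was not examined here. For Per2 the ET livers, at 108, 119 and 147 CPM, lay near the Ent livers, and for Cry2, at 306, 243 and 275 CPM, near the LT livers. At an unadjusted p under 0.05 edgeR found 6 clock genes higher and 1 lower, and DESeq2 called 6 higher and 1 lower.

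Ribosomal protein genes divided into members that were lower and members that were higher. Of 27 with a unit of their own, 13, or 48.1%, were lower in LT, 5 were higher and 9 did not pass, and the median was -0.75. The summed level of the 27 units was 1212 and 1324 CPM in Ent and 1361 and 1227 CPM in LT, with no fall. Every one of the 27 units is in the shortest of 4 length classes, where 26.1% of all units were lower and 11.7% higher. Rps27a, whose protein is made as a fusion with ubiquitin, was at 49.8 and 49.1 CPM in Ent and 11 and 9.28 CPM in LT (log2 fold change -2.28 ± 0.23, SE, adjusted p = 0.00019). Rpl7 was at 53.9 and 47.3 CPM in Ent and 6.8 and 14 CPM in LT (log2 fold change -2.28 ± 0.32, SE, adjusted p = 0.0012), and Rps7 was at 32.1 and 29.5 CPM in Ent and 5.14 and 7.95 CPM in LT (log2 fold change -2.23 ± 0.36, SE, adjusted p = 0.002). Both LT livers lay far below both Ent livers in each of these genes. Rpl31 had a log2 fold change of -1.68. The higher members were Rpl34, Rpl37a, Rpl9, Rpl15 and Rplp1, Rpl34 at 68 and 82.5 CPM in Ent and 191 and 162 CPM in LT (log2 fold change 1.23 ± 0.18, SE, adjusted p = 0.0012). In this list 8 calls held without any 1 library. Ribosomal protein genes have many processed copies in mammalian genomes, and only uniquely aligned reads had been counted. Rpl37a, Rpl9, Rpl15 and Rplp1 passed in 2 of the 4 fits each.

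The ribosomal protein genes differed also from ET, a state also at low body temperature, taken earlier in the bout and in another season. Both LT livers lay below all 3 ET livers in 19 of the 27 units, against 13.9% of all single-gene units, and above them in 2, against 10.7%. All 27 are in the shortest length class, and the share of that class in this comparison was not examined. Rps27a was at 37.3, 49.9 and 34.6 CPM in ET, Rps26 at 30.6, 31 and 23.8 CPM in ET against 9.22 and 8.84 CPM in LT, and Rps27 at 85.1, 108 and 81.1 CPM against 40.2 and 45.2 CPM. The contrast of the 3 ET livers with the Ent liver of the other season, which uses none of the 4 livers compared here, gave the list a median log2 fold change of 0.18. Season and time in torpor cannot be told apart between ET and LT. The Rps27 call passed in 1 of the 4 fits with a library left out.

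**Figure D4:**
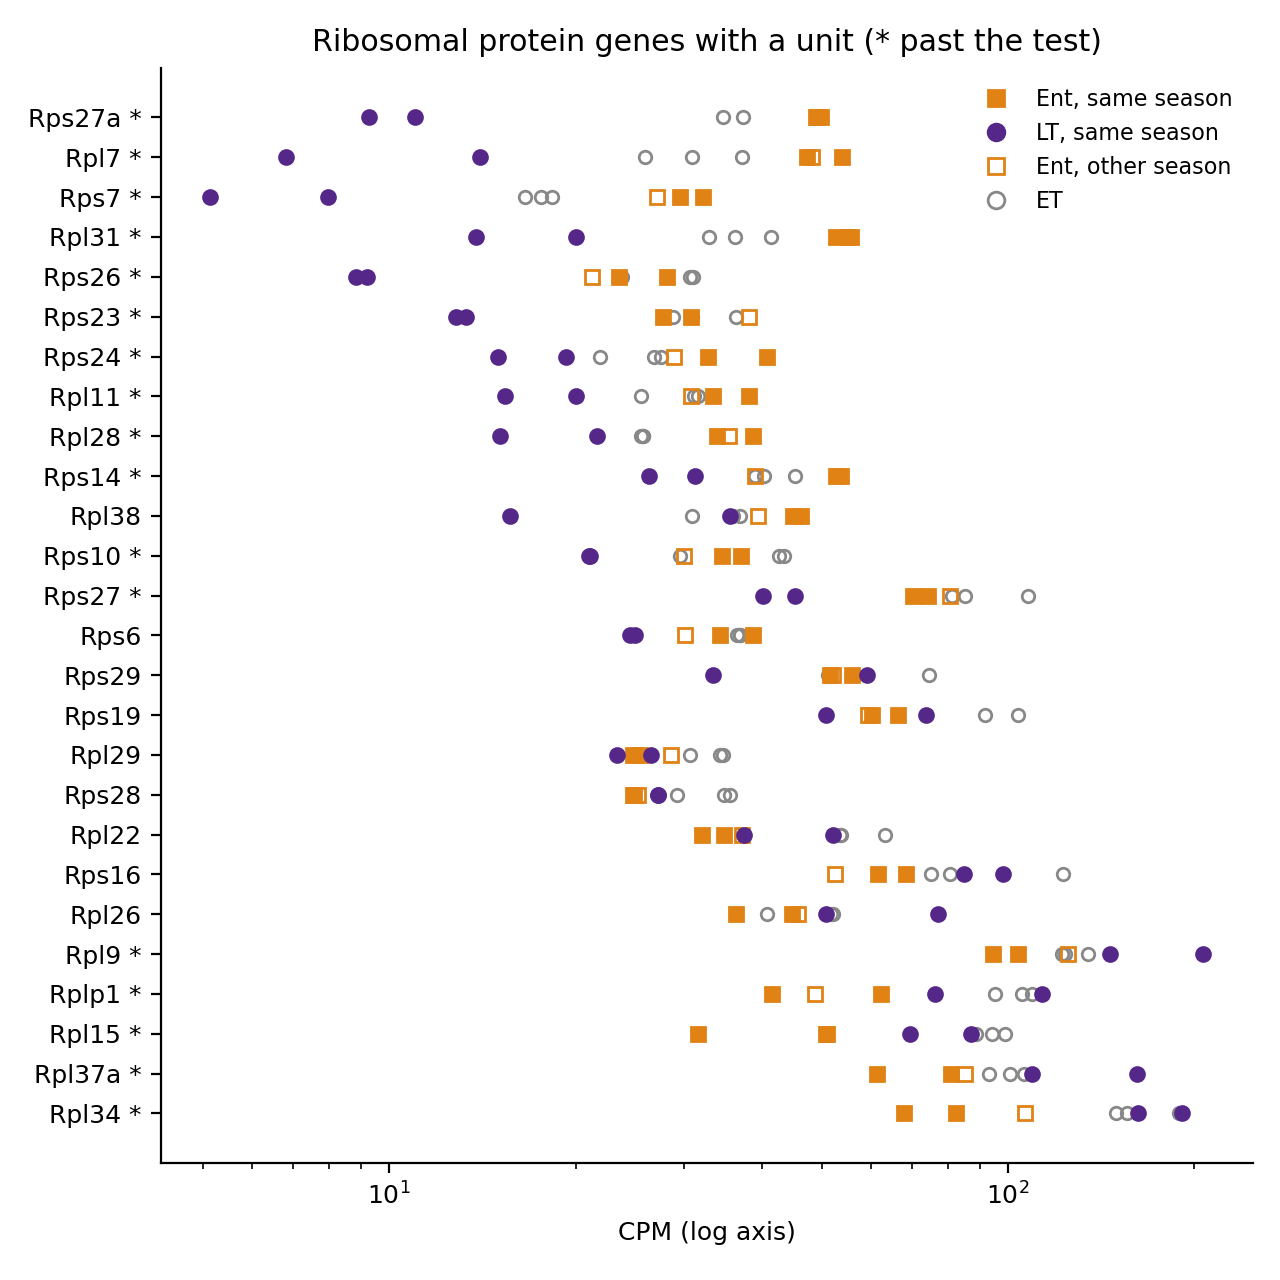
CPM on a log axis for 26 of the 27 ribosomal protein genes with a unit, ordered by log2 fold change from the most negative at the top, with filled squares for Ent and filled circles for LT of the same season, the open square for Ent of the other season and open circles for ET. In the upper rows the LT circles lie to the left of every other symbol, and in the lowest rows they lie to the right of the filled squares.

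Subunits of mitochondrial oxidative phosphorylation had 4 of 24 members higher and 4 lower, 16.7% each way, near the shares over all units, and 17 of the 24 are in the shortest length class, where 26.1% of all units were lower. Ndufb9 of complex I was at 61.5 and 45.8 CPM in Ent and 16.5 and 18.1 CPM in LT (log2 fold change -1.63 ± 0.20, SE, adjusted p = 0.00058), and Ndufa4 was at 40.0 and 42.6 CPM in Ent and 7.71 and 13.4 CPM in LT (log2 fold change -1.97 ± 0.35, SE, adjusted p = 0.0028) with ET livers at 29.7, 57.4 and 35 CPM. Atp5e and Atp5o, of the ATP synthase, were higher, Atp5e at 21.3 and 32.2 CPM in Ent and 65.5 and 67.2 CPM in LT (log2 fold change 1.31 ± 0.24, SE, adjusted p = 0.0031) and Atp5o at 73.1 and 72.1 CPM in Ent and 193 and 132 CPM in LT (log2 fold change 1.16 ± 0.23, SE, adjusted p = 0.0052). Atp5g2, of its membrane ring, was lower at 42.8 and 38.5 CPM in Ent and 11.2 and 17.5 CPM in LT (log2 fold change -1.50 ± 0.32, SE, adjusted p = 0.0068). Translation factors had 4 of 17 (23.5%) higher and 3 (17.6%) lower, against 12.0% and 12.8% of all units. Eif3f was at 61.4 and 69.4 CPM in Ent and 124 and 127 CPM in LT (log2 fold change 0.94 ± 0.13, SE, adjusted p = 0.0012), Eef1a1 at 313 and 386 CPM in Ent and 648 and 549 CPM in LT (log2 fold change 0.78 ± 0.18, SE, adjusted p = 0.0091), and Eif1 was lower at 436 and 457 CPM in Ent and 216 and 206 CPM in LT (log2 fold change -1.08 ± 0.28, SE, adjusted p = 0.017). Atp5o and Atp5g2 passed in 3 of the 4 fits with a library left out, Eef1a1 in 2 and Eif1 in 0.

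In antioxidant defence the superoxide dismutases went opposite ways. Of 19 genes 4 (21.1%) were higher and 2 (10.5%) lower, against 12.0% and 12.8% of all units. Sod1, the cytosolic enzyme, was at 328 and 299.5 CPM in Ent and 109 and 106 CPM in LT (log2 fold change -1.54 ± 0.22, SE, adjusted p = 0.0012). Sod2, the mitochondrial enzyme, was at 47.1 and 83.4 CPM in Ent and 126 and 115 CPM in LT (log2 fold change 0.89 ± 0.26, SE, adjusted p = 0.03), and it passed the test in only 1 of the 4 fits with a library left out. Gsr, glutathione reductase, was at 78 and 73.2 CPM in Ent and 137 and 136 CPM in LT (log2 fold change 0.85 ± 0.15, SE, adjusted p = 0.0029). Pgd and Tkt, of the pentose phosphate pathway, were at 33.3 and 28.6 CPM in Ent and 85.1 and 95.9 CPM in LT (log2 fold change 1.55 ± 0.39, SE, adjusted p = 0.014) and at 55.2 and 57 CPM in Ent and 93.4 and 108 CPM in LT (log2 fold change 0.84 ± 0.24, SE, adjusted p = 0.027). For Gsr and Tkt all 3 ET livers lay below both LT livers. The calls of Pgd and Tkt passed in 0 of the 4 fits.

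Other lists showed few calls. None of 20 genes of cell cycle arrest and p53 passed the edgeR test, whereas DESeq2 called 2, and Wee1 came nearest at 28.6 and 32.5 CPM in Ent and 60.5 and 48.5 CPM in LT (log2 fold change 0.83 ± 0.29, SE, adjusted p = 0.053). Of 22 actin cytoskeleton genes 4 (18.2%) were higher and 0 lower, against 12.0% and 12.8% of all units. MYL12B, a myosin light chain, was at 29.4 and 30.8 CPM in Ent and 53.2 and 62.6 CPM in LT (log2 fold change 0.94 ± 0.19, SE, adjusted p = 0.0047). Of 44 chromatin genes 3 were higher and 3 lower, below the shares over all units. Kdm3a, a histone demethylase, was at 134 and 147 CPM in Ent and 286 and 253 CPM in LT (log2 fold change 0.94 ± 0.17, SE, adjusted p = 0.0029), and Setdb1, a histone methyltransferase, was lower at 25.3 and 20.3 CPM in Ent and 6.8 and 7.66 CPM in LT (log2 fold change -1.65 ± 0.31, SE, adjusted p = 0.0039). At an unadjusted p under 0.05 the arrest and p53 list had 2 genes higher and 2 lower in edgeR, and the actin list had 0 lower, as it had by DESeq2.

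Some genes to which the study gave attention did not pass the test. A2m, alpha-2-macroglobulin, was at 526 and 668 CPM in Ent and 519 and 348 CPM in LT (log2 fold change -0.46 ± 0.68, SE, adjusted p = 0.66). Arrdc3 was at 129 and 86.9 CPM in Ent and 79.1 and 55.2 CPM in LT (log2 fold change -0.69 ± 0.76, SE, adjusted p = 0.55). Serpina7, the thyroxine-binding globulin, was at 51.2 and 23.7 CPM in Ent and 13.6 and 8.1 CPM in LT (log2 fold change -1.79 ± 0.72, SE, adjusted p = 0.095). Both LT livers lay below both Ent livers for each of these genes, but the fitted differences did not pass the test. The unit SCD_containing_gene16206, which holds the stearoyl-CoA desaturase SCD, was at 3.04 and 7.86 CPM in Ent and 22.2 and 2.95 CPM in LT (log2 fold change 1.22 ± 0.94, SE, adjusted p = 0.37), and 1 LT liver lay above and the other below both Ent livers.

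Units lower in LT were concentrated among short ones. Single-gene units were divided by length into 4 classes of equal number, the shortest from 775 to 18660 nt and the longest from 74561 to 1969614 nt. In the shortest class 26.1% of units were lower in LT and 11.7% higher, with a median log2 fold change of -0.27. In the classes between them 12.2% and 7.82% were lower and 16.2% and 16.4% higher, with medians of 0.05 and 0.10. In the longest class 5.27% were lower and 3.57% higher, with a median of -0.05. The level also moved with length, from a median of 35.9 CPM in the shortest to 185 CPM in the longest class. Units were divided by mean level into 4 classes in the same way. Within the highest class of levels 21.6% of 51 shortest units were lower and 15.7% higher, against 2.90% and 3.77% of 689 longest units. In the next class down 20.7% of 140 shortest units were lower and 22.9% higher, with a median of 0.07, against 4.00% and 3.64% of 275 longest units. In the class below that the shortest units were lower in 20.4% and higher in 14.2% of 367, and the longest in 6.06% and 3.03% of 132. Within the lowest class of levels 31.0% of 619 shortest units were lower and 7.43% higher, against 28.7% and 2.50% of 80 longest units. At each level short units thus had more calls than long ones in both directions, and the shares lower lay closest together at the lowest level. How the edges of the counted gene bodies bear on it was not tested.

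**Figure D5:**
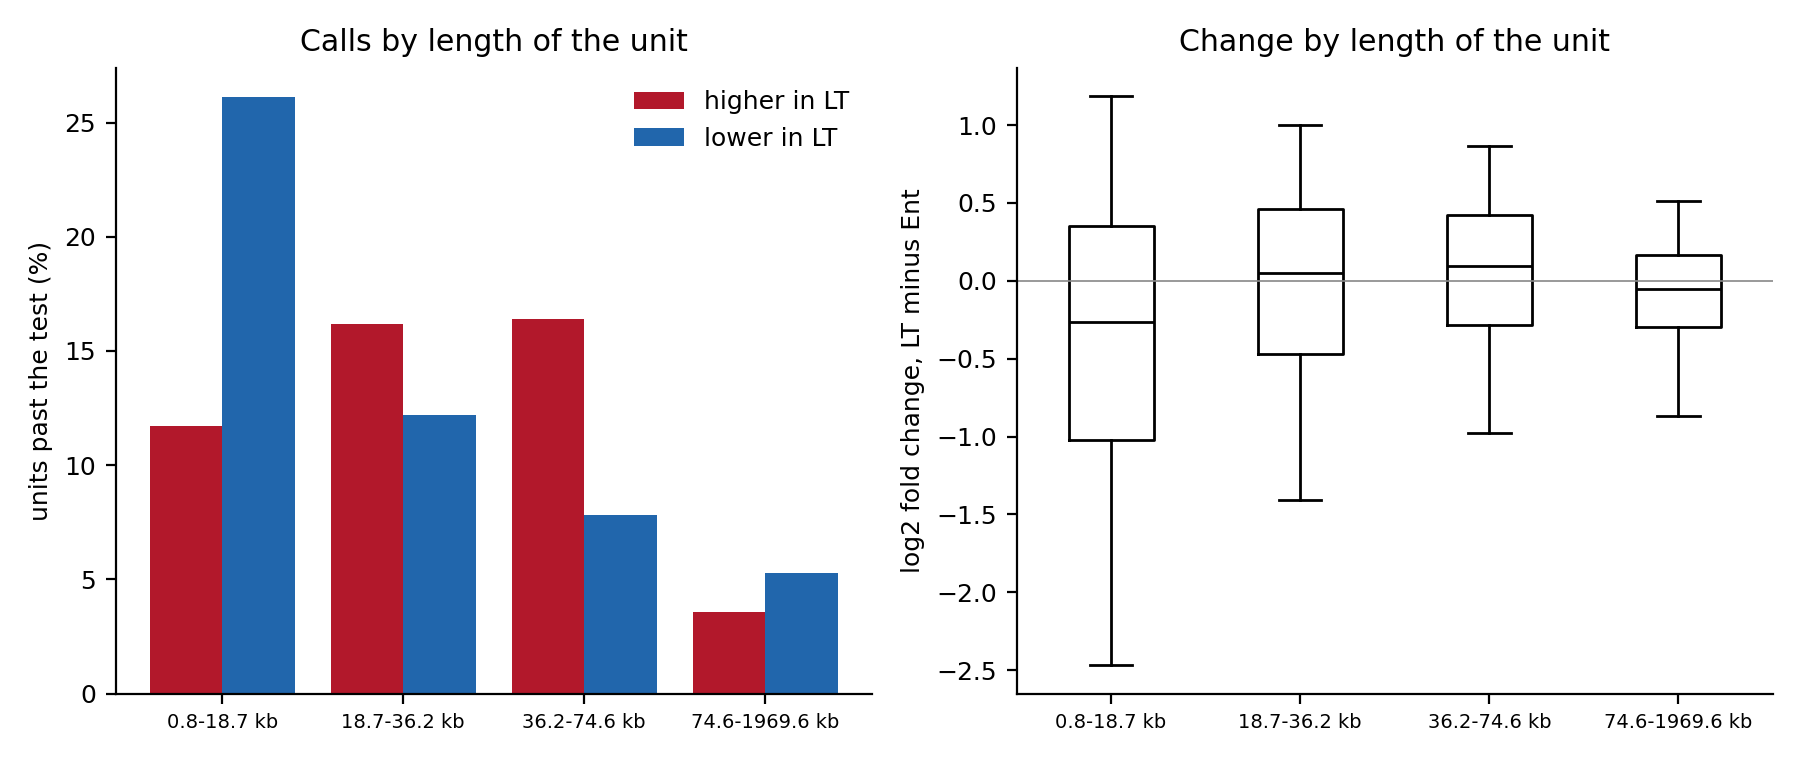
Left, percent of single-gene units higher (red) or lower (blue) in LT in 4 classes of unit length. Right, log2 fold change of LT against Ent in the same classes, with the box from the 25th to the 75th percentile, the line at the median and whiskers from the 5th to the 95th. The share lower in LT is 26.1% in the shortest and 5.27% in the longest class.

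Units without an established gene name had a larger share lower. Of 309 units named only by a predicted or placeholder identifier, 129, or 41.7%, were lower and 21 higher, with a median of -0.82, against 10.6% lower and 12.6% higher among 4223 units with a gene symbol. Placeholder units were shorter, with a median length of 13707 nt against 38896 nt, but they were also lower within each length class, by shares of 48.7%, 31.1%, 31.7% and 30.0% from the shortest to the longest. Among units with a gene symbol the share lower was 21.5% in the shortest class and 4.75% in the longest. Units with an upstream unit within 20 kb on the same strand numbered 440, of which 12.3% were lower and 12.7% higher, with a median of 0.05. Those with one on the other strand numbered 808, of which 17.6% were lower and 14.7% higher, with a median of -0.09. The 3457 without one had 11.8% lower and 11.3% higher and a median of -0.02.

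A contrast without any of the 4 livers compared gave the same direction in most called units. It set the 3 ET livers against the Ent liver of the other season. It was positive for 98.0% of the units higher in LT and negative for 90.9% of those lower, against 49.4% and 50.6% of all units. Its median log2 fold change was 0.60 over the units higher in LT and -0.70 over those lower. Some list medians were much nearer to none than in the main contrast. That of cholesterol genes was -0.23 against -1.02, of amino acid genes -0.04 against -0.53, and of ketogenesis genes 0.04 against -0.17. Other list medians were as large or larger, such as complement at -1.28 against -0.63 and SR proteins with Tra2 at 0.62 against 0.56. ET and this Ent liver differ in season. Exceptions include Fgf21, for which the contrast was 0.20, Trib1 at 0.00, and Gsr at -0.29. For Per2, Serpinf1 and Hspa5 it was 0.82, 0.81 and 1.06, with ET livers of Hspa5 at 131, 189.5 and 169 CPM, all below both LT livers.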

How the data were processed

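GRO-seq was measured in frozen livers with 1 library per animal. The authors trimmed the reads, aligned them with BWA to the HiC_Itri_2 genome, extended gene bodies with fstitch from these same reads, removed the start of each gene, merged overlapping genes and counted uniquely aligned reads by strand with featureCounts. Raw read counts, with no normalization, are what the authors deposited for each unit, and the versions of these tools are not given in the sources used here. The gene bodies were drawn from the same reads as the counts, which could affect both levels and lengths. The submitters' processing notes name cutadapt, BWA, featureCounts and DESeq2.

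Here all 6324 units and 14 libraries were fitted in edgeR 4.0.16 (R 4.3.3) with TMM normalization and a robust quasi-likelihood model of 6 cells, in which the Ent liver of the other season was a cell of its own (8 residual degrees of freedom). The contrast was LT minus Ent of the same season. Benjamini-Hochberg adjustment took in every unit, merged or not, and a unit was called at an adjusted p of 0.05 or less. No unit was removed. The study's own test was DESeq2 at 0.001, and both were run as alternatives. CPM are counts divided by the TMM-scaled library size. Log2 fold changes are from the fit. The standard error (SE) printed with them was derived from the test. It is the absolute log2 fold change divided by the square root of the quasi-likelihood F statistic. Counting depth was 6345826 to 7697181 reads in the livers compared, and replicate numbers only name the libraries.

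The genes named are the 10 largest rises and falls among called single-gene units with a symbol, no overlap between Ent and LT and at least 20 counts in each library of the higher group, the 3 members of each gene list with the lowest p, and 9 genes that the study discusses. Other list members named were chosen after their values were seen. Some list members are counted in their lists but not reported here by name. The comparison, lists and genes were chosen with earlier results of these data known. Lists are of gene symbols as in the table, 4070 of which match a RefSeq symbol of the assembly mIctTri1.hap1, from which no coordinates were taken. Beside DESeq2 (1.42.0) the alternatives were voom in limma 3.58.1, upper-quartile and RLE scaling, uniquely mapped reads as library size, at least 10 counts in every library, the 4 libraries alone, the third Ent liver added, single-gene units alone, an added 2-fold minimum and each library left out. The fits were tested on simulated counts with known changes.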

Additional observations from a re-analysis of the deposited data

How the results depend on the processing

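The number of single-gene units higher in LT, 564, lay between 426 with upper-quartile normalization and 738 with DESeq2, and the number lower, 604, between 526 with uniquely mapped reads as library size and 714 with DESeq2, over the 9 alternatives that kept the 4 libraries compared and the threshold. All 1168 units called were also called by DESeq2 in the same direction. At an adjusted p of 0.001 or less 13 units were higher and 54 lower, and with at least a 2-fold change added 173 were higher and 428 lower, since both rules are stricter. With 1 library left out, 146 to 374 units were higher and 234 to 462 lower, and a group then holds a single liver that is assumed to vary like the others. Of 128 units named by the rule, 127 kept their direction in each of the 13 alternatives in which they were fitted, and 5 were not fitted with at least 10 counts in every library. The exception, SCD_containing_gene16206, which was not called, changed from 1.22 to -0.87 without LT replicate 1 and to 2.07 without Ent replicate 2. Of 40 lists with a unit, 7 had a median that changed sign in some alternative. With merged units included, 25.8% of the shortest and 5.44% of the longest of 4 length classes were lower in LT. The cause of these changes was not tested. No paired analysis was possible because the Ent and LT libraries compared share only replicate number 1, which names separate animals. With 2 livers a group small differences can go undetected, and no detection limit or interval was computed. The standard errors rest on a spread estimated over all 14 libraries, while the levels compared come from these 4 livers only.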

Other observations

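Past the stricter threshold of 0.001 lay single-gene units that belong to no list and were chosen for this paragraph after their values were seen. Enzymes of the citric acid cycle and its malate shuttle differed in direction. Ogdh, of the 2-oxoglutarate dehydrogenase complex, was at 355 and 391 CPM in the Ent livers and at 122 and 124 CPM in the LT livers, with a log2 fold change of -1.60. Mdh1, the cytosolic malate dehydrogenase, was at 66.7 and 69.2 CPM in Ent and at 237 and 200.3 CPM in LT, with a log2 fold change of 1.68. Pxmp2, a channel of the peroxisomal membrane, was higher in LT at 445 and 445 CPM against 127 and 149 CPM, and the ET livers were at 458, 305 and 364 CPM. Gys1, the glycogen synthase of muscle, was lower at 10.9 and 13.9 CPM against 44.5 and 32.5 CPM, the same direction as Gys2. Gamt, which completes creatine synthesis, was lower at 9.67 and 14.3 CPM against 40.8 and 46.0 CPM. Agpat1, an acyltransferase of phospholipid and triglyceride synthesis, was lower at 4.54 and 3.54 CPM against 28.1 and 17.4 CPM. Rpp38, a subunit of RNase P, was lower at 5.74 and 7.37 CPM against 44.9 and 43.5 CPM. Mterf2, a mitochondrial transcription factor, and Rnf168, a ubiquitin ligase of DNA repair, were higher, at 82.7 and 63.5 CPM against 17.0 and 24.8 CPM for Mterf2 and at 149 and 149 CPM against 49.5 and 62.7 CPM for Rnf168. The groups did not overlap for any of these genes, and a threshold passed by a gene picked from the whole table is no separate support for it.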
